A study of Mus musculus with 69 samples.

Results

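Hearts of mice injected with potassium cyanide (KCN) were compared with hearts of mice injected with saline, both taken 4 h after the injection. The arrays were chosen by their titles, which put 3 arrays in the KCN group and 3 in the saline group, 6 of the 69 arrays of the series. All mice were non-anesthetized adult males of the outbred CD-1 stock weighing 20 to 35 g. KCN was given subcutaneously at 8.0 mg/kg, and the controls received a matched volume of saline by the same route. The neighbouring times of the same injection were 2 h (4 KCN and 3 saline arrays) and 8 h (4 KCN and 4 saline arrays). The same hour of the inhalation arm held 4 arrays of mice that breathed hydrogen cyanide (HCN) at 327 ppm through the nose only and 4 arrays of mice that breathed air. Every array is titled as a biological replicate and its text speaks of the heart of 1 mouse, so n counts mice here. RNA came from hearts with no cell sorting, and in such bulk samples fewer cells of a type and less RNA per cell cannot be told apart.

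Cyanide binds the haem of cytochrome c oxidase, where the mitochondrial respiratory chain hands its electrons to oxygen, and stops the use of oxygen while oxygen itself is still present. The heart depends on respiration for contraction, and it switches to glycolysis when respiration fails. Cells under such acute stress transcribe immediate early genes such as Atf3 and the Nr4a receptors within minutes, and they clear cyanide by turning it into thiocyanate with the enzymes rhodanese (Tst) and Mpst. The comparison asks which of these and other heart transcripts differed 4 h after a dose by injection.

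Array signals were log2 values per probe set, a probe set being the group of short probes that reads 1 transcript. A probe set was tested where at least 1 of the 18 group means of the series exceeded 3.23, the median of all group means, which left 26773 of 45141. It was called where limma's moderated test gave a Benjamini-Hochberg adjusted p under 0.05, and "rose" and "fell" are used only of called probe sets. Changes are KCN minus saline on the log2 scale with their standard error (SE), with 3 arrays in each group.

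Heart muscle transcripts were at the top of the scale on all 6 arrays. Tnni3, a troponin of heart muscle, lay between 12.79 and 12.86 in KCN hearts and between 12.85 and 12.96 in saline hearts. The 6 arrays correlated with each other at 0.976 or more. Correlations between KCN and saline arrays ran between 0.976 and 0.988. They ran between 0.988 and 0.990 within the KCN group and between 0.986 and 0.987 within the saline group. The log2 ratio of 3 prime to 5 prime actin control probes, which grows as RNA degrades, was 0.578, 0.619 and 0.572 in KCN hearts, against 1.204, 0.775 and 0.601 in saline hearts. The difference of -0.270 did not pass an exact permutation test (p = 0.2 on both sides, where 0.1 is the smallest that 3 against 3 allows). Transcripts of the airway lining separated the groups by a wide margin. The secretoglobin Scgb1a1 read 9.69, 12.07 and 10.95 in KCN hearts, against 2.88, 3.22 and 2.89 in saline hearts. The mean of Scgb1a1 and Bpifa1, a second airway secretory gene, exceeded 8 on 43 of the 69 arrays, on all 3 KCN arrays and on none of the 3 saline arrays at 4 h, and no array lay between 5 and 8.

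In the hearts 4 h after KCN, 605 of the 26773 probe sets tested were called, which is 2.26%. Of these, 325 rose (1.21%), in 212 named genes, and 280 fell (1.05%), in 214 named genes. Rises were larger than falls, since 61 rises and 3 falls were at least 2-fold and the median called rise was 0.68 against a median called fall of -0.58. The arrays of the groups did not overlap in 305 of the rises and in 259 of the falls. Among all probe sets tested, 18.3% did not overlap, 10.3% with KCN higher and 8.00% with KCN lower. Calls were made from these same arrays, so called probe sets lean toward no overlap, and the counts add no support to the calls. KCN replicate 2 was the highest KCN array in 179 of the rises (55.1%) and the lowest in 145 of the falls (51.8%). The split by direction depended on the scaling, since 292 rose and 481 fell after quantile normalization. The number called was 56 without KCN replicate 2, 231 without KCN replicate 1, 125 without saline replicate 2, 171 without saline replicate 1 and 947 without saline replicate 3, and it was 229 (134 rises, 95 falls) with the airway mean as a covariate and 29, all rises, when only these 6 arrays were fitted.

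The largest rise among called probe sets was that of Nr4a3, an orphan nuclear receptor that is induced as an immediate early gene. Its signal was 9.71, 10.32 and 9.36 in KCN hearts, against 5.74, 7.05 and 7.15 in saline hearts, so every KCN array stood above every saline array. The difference was 3.15 ± 0.52 (limma, adjusted p = 0.00123), and it was called with each of the 6 arrays left out in turn (2.70 to 3.40). The other 2 Nr4a3 probe sets had mean KCN signals of 3.05 and 3.31, near the 3.23 used as the floor for testing, and differed by 0.38 and 0.13 with adjusted p of 0.249 and 0.768. Atf3, a stress-induced bZIP transcription factor that represses many of its targets, followed with 7.17, 9.26 and 6.74 in KCN hearts, against 5.34, 6.33 and 5.36 in saline hearts. It differed by 2.04 ± 0.47 (limma, adjusted p = 0.0118). KCN replicate 2 was far above the other KCN arrays, and without it the difference was 1.28 and not called. Without saline replicate 1 Atf3 was not called either. Btg2, which recruits the deadenylase complex that shortens mRNA tails, read 7.67, 7.81 and 6.67 in KCN hearts, against 4.94, 5.90 and 5.28 in saline hearts. The difference was 2.01 ± 0.58 (limma, adjusted p = 0.046). However, Btg2 was called in 1 of the 6 fits that each left out 1 array, where its difference ran between 1.79 and 2.36. A second probe set of Btg2, at 6.15 in KCN hearts against 5.92 in saline hearts, differed by 0.23 ± 0.35 with overlap (adjusted p = 0.796).

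The promoters of these 3 genes are shown because they gave the largest rises and belong to early response families. They span 250 bases before to 50 bases after the start site in RefSeq, build GRCm38.p6, and read 5′ to 3′ on the gene's strand. Nr4a3 lies at chr4:48045055-48045354 on the plus strand, Atf3 at chr1:191183284-191183583 on the minus strand and Btg2 at chr1:134079106-134079405 on the minus strand. Capitals mark the cAMP response element TGACGTCA, its core TGACG, which that element contains on both strands, and the CCAAT box, all searched on both strands.
Nr4a3: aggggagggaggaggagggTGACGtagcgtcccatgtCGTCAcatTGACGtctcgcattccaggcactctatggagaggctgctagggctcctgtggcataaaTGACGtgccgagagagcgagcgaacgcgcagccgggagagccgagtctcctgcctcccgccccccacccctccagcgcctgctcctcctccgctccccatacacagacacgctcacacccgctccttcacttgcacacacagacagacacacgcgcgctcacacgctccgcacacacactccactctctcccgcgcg
Atf3: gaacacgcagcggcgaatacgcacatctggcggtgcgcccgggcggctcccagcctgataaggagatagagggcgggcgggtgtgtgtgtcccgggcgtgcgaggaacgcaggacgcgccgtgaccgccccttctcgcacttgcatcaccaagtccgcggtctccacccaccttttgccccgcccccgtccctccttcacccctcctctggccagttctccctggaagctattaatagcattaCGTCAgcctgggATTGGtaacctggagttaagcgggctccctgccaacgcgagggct
Btg2: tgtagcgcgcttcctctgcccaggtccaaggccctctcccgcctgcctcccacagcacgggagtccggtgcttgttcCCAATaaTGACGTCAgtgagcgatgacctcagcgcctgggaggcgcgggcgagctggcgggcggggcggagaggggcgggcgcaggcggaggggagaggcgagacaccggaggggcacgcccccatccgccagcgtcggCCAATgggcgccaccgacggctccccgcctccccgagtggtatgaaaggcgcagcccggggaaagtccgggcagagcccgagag
Nr4a3 held TGACG 4 times, Atf3 held it once, 7 bases before the start site, and Btg2 held the full TGACGTCA 166 bases before the start site. Over all 32851 RefSeq promoters of that length, TGACG occurred in 20.8%, TGACGTCA in 1.79% and CCAAT in 37.4%. Counted by gene, a gene holding a sequence where any of its promoters does, the shares were 23%, 2.03% and 41.1% of 27025 genes. Of the 9 largest rises with a promoter in the table, counted the same way, 4 held TGACG and 5 held CCAAT, and of the 12 largest falls with one, 4 and 7 did. The full TGACGTCA was in 1 of these 9, Btg2, and in 1 of these 12, Dusp8, which held it 2 times. The AP-1 site TGACTCA was in 1 of these 9 and 1 of these 12 (5.95% of all genes), and the glucocorticoid receptor sequence AGAACA was in 0 of the 9 and 4 of the 12 (21.3% of all genes). A match of letters is a description and shows no binding.

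The other immediate early transcription factors did not follow Nr4a3 and Atf3 past the threshold. Of 26 tested, 2 rose and 0 fell, and the median change of the list was 0.16. Over all genes, each read by its brightest probe set, 1.05% rose, 1.25% fell and the median change was 0.00. The nearest relatives of Nr4a3 gave smaller values. Nr4a1 read 5.78, 6.75 and 6.20 in KCN hearts, against 5.81, 4.75 and 5.51 in saline hearts (0.89 ± 0.49, adjusted p = 0.37), with overlap between the groups. The probe sets of Nr4a2 had means between 3.06 and 3.46 in KCN hearts and between 2.79 and 3.24 in saline hearts, all near the floor. Fos, a subunit of the AP-1 factor, varied between 4.43 and 6.17 in KCN hearts and between 4.01 and 5.28 in saline hearts, and Egr1, a zinc-finger early factor, differed by 0.36 (adjusted p = 0.757).

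Btg2 was also the member called among the early brakes, the phosphatases, Sprouty proteins and mRNA decay factors that end growth factor and stress signals. Of 27 tested, 1 rose and 0 fell, with a median of 0.34, and the groups did not overlap in 11 of them, against 18.7% of all genes. Spry2, an inhibitor of receptor tyrosine kinase signalling, read 8.35, 8.19 and 8.35 in KCN hearts, against 7.21, 7.52 and 7.65 in saline hearts, a difference of 0.83 that narrowly missed the threshold (adjusted p = 0.0597). Sik1, a salt-inducible kinase, differed by 1.08 (adjusted p = 0.0982). Dusp8, a phosphatase that inactivates JNK and p38, went the other way. One of its 3 probe sets fell, at 4.21, 4.14 and 4.42 in KCN hearts, against 4.80, 5.30 and 5.26 in saline hearts (-0.86 ± 0.24, adjusted p = 0.0405). It was called in 1 of the 6 fits that left out an array (-1.02 to -0.77) and in 6 of 12 other alternatives. Its brightest probe set differed by -0.69 (adjusted p = 0.0585), and the list counts that one.

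**Figure D1:**
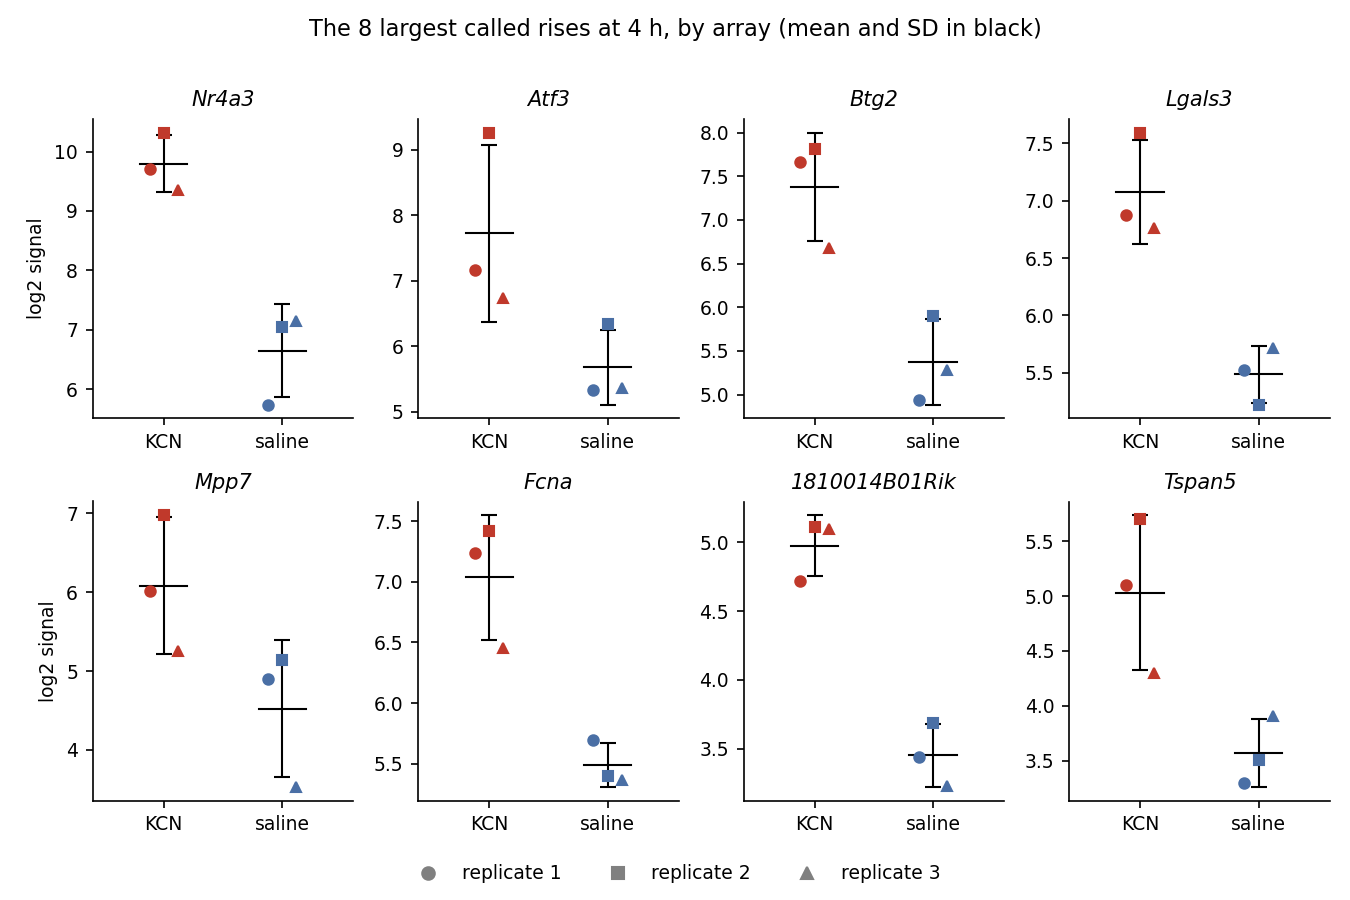
Log2 signal of named rises on each array, with KCN hearts (left) and saline hearts (right) of each panel, each point 1 array marked by its replicate and each bar a group mean. The vertical axes differ between panels. Nr4a3 lay between 9.36 and 10.32 in KCN hearts and between 5.74 and 7.15 in saline hearts, and KCN replicate 2 was the highest KCN array for most of these genes.

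Genes of phagocytes and of connective tissue made up several of the remaining large rises. Lgals3, the lectin galectin-3 of activated macrophages, read 6.87, 7.59 and 6.76 in KCN hearts, against 5.52, 5.22 and 5.72 in saline hearts. The groups were more than 1 unit apart (1.59 ± 0.40, limma, adjusted p = 0.022). Lgals3 was called in 3 of the 6 fits that left out an array (1.33 to 1.75), and lost the call with the airway covariate and with array weights. Fcna, ficolin A, a lectin of macrophages that starts the complement cascade, read 7.24, 7.42 and 6.45 in KCN hearts, against 5.70, 5.40 and 5.37 in saline hearts. It differed by 1.55 ± 0.34 (limma, adjusted p = 0.00957) and, of the 6 arrays, lost its call when KCN replicate 2 was left out (1.36). Vcan, the matrix proteoglycan versican, was at 6.72, 7.33 and 6.57 in KCN hearts, against 5.70, 5.13 and 5.77 in saline hearts (1.34 ± 0.30, adjusted p = 0.0118). Osr1, a zinc-finger transcription factor of mesenchymal cells, was at 6.33, 6.63 and 6.25 in KCN hearts, against 4.97, 4.59 and 5.66 in saline hearts. Its difference of 1.33 ± 0.26 (adjusted p = 0.00373) had the lowest adjusted p among the 15 largest rises after Nr4a3. Vcan and Osr1 each lost the call without KCN replicate 2 and without saline replicate 2, with differences of at least 1.11 and 1.09.

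Agt and Slc2a3 encode a hormone precursor and a transporter. Agt, the angiotensinogen from which angiotensin is cut, read 5.92, 6.35 and 5.28 in KCN hearts, against 4.70, 4.46 and 4.37 in saline hearts. It rose by 1.34 ± 0.37 (limma, adjusted p = 0.0359) and was called in 1 of the 6 fits with an array left out (1.09 to 1.62). Slc2a3, the glucose transporter GLUT3, read 6.30, 6.25 and 5.39 in KCN hearts, against 4.33, 4.57 and 5.04 in saline hearts (1.34 ± 0.35, adjusted p = 0.0297). Its second probe set differed by 0.72 with an adjusted p of 0.19. Slc2a3 was called in 2 of the 6 fits that left out an array (1.18 to 1.63) and lost the call with the airway covariate and with array weights.

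The remaining large rises were of scaffold, membrane and trafficking proteins. Mpp7, a scaffold protein of cell junctions, read 6.02, 6.97 and 5.25 in KCN hearts, against 4.89, 5.14 and 3.53 in saline hearts (1.56 ± 0.40, adjusted p = 0.0259). Tspan5, a tetraspanin of the cell membrane, rose by 1.47 (adjusted p = 0.0131), and Trim2, a ubiquitin ligase, by 1.32 (adjusted p = 0.0164). A brighter probe set of Tspan5 differed by 0.41 (adjusted p = 0.329). Tspan5 and Trim2 were called in 2, and Mpp7 in 3, of the 6 fits that left out an array, and all 3 genes lost the call without KCN replicate 2. Trim2 and Mpp7 lost it with the airway covariate too. Of the 6 probe sets of Rab2a, a small GTPase of transport between the endoplasmic reticulum and the Golgi, 2 rose, by 1.37 and 1.25. Their mean KCN signals were 5.0 and 4.01. The 3 bright Rab2a probe sets, above 10 in KCN hearts, differed by 0.16 or less, and the largest Rab2a rise was called in 3 of the 6 fits that left out an array. Of the unnamed transcripts, 4932431P20Rik rose by 1.41 (adjusted p = 0.00705) and 1 probe set of 1810014B01Rik by 1.52 (adjusted p = 0.0128), while the other 2 probe sets of 1810014B01Rik differed by -0.16 and -0.17. Among all rises whose gene had further probe sets, 104 of 169 had every other probe set higher as well, and 71 of 138 falls had every other one lower.

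The falls were smaller and closer together. The lowest adjusted p of the named genes was that of Mapkapk3, a kinase activated by p38 and one that acts on mRNA stability and the cytoskeleton. It read 7.12, 6.55 and 7.18 in KCN hearts, against 8.07, 7.86 and 7.69 in saline hearts. The difference was -0.93 ± 0.14 (limma, adjusted p = 0.000567), and a second probe set fell by 0.84 (adjusted p = 0.00228). Hk1, the hexokinase that sits on mitochondria and starts glycolysis, read 8.73, 8.26 and 8.39 in KCN hearts, against 9.72, 9.22 and 9.20 in saline hearts. It fell by 0.92 ± 0.16 (limma, adjusted p = 0.00123), and its second, dimmer probe set differed by -0.35 (adjusted p = 0.578). Nabp2, a single-stranded DNA binding protein of DNA repair, read 5.67, 5.29 and 5.63 in KCN hearts, against 6.58, 6.53 and 6.47 in saline hearts (-0.99 ± 0.18, adjusted p = 0.0018). Mapkapk3, Hk1 and Nabp2 were called with each array left out in turn and in 11 of 12 other alternatives, the fit of these 6 arrays alone being the exception.

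Atg2a, which moves lipid into growing autophagosomes, read 5.03, 4.64 and 5.20 in KCN hearts, against 6.28, 5.80 and 5.74 in saline hearts. It fell by 0.98 ± 0.19 (limma, adjusted p = 0.00265). Tprkb, a subunit of the complex that modifies tRNAs reading ANN codons, was at 4.27, 4.22 and 4.11 in KCN hearts, against 5.68, 5.02 and 4.97 in saline hearts (-1.02 ± 0.20, adjusted p = 0.00405), and its brighter probe set differed by -0.27 (adjusted p = 0.537). Tubg1, the gamma-tubulin that seeds microtubules, was at 5.80, 5.09 and 6.08 in KCN hearts, against 6.34, 6.81 and 6.58 in saline hearts (-0.92 ± 0.18, adjusted p = 0.00347). Each of these 3 genes lost its call without 1 array, KCN replicate 2 for Atg2a (-0.81) and Tubg1 (-0.64) and saline replicate 1 for Tprkb (-0.79). Rabl6, a Rab-like GTPase, fell by 0.89 (adjusted p = 0.00262), Slc26a6, an exchanger of chloride and bicarbonate, by 0.95 (adjusted p = 0.0175) and Plxna1, a receptor for semaphorins, by 0.86 (adjusted p = 0.0113). The largest named fall, of Mblac2, a metallo-beta-lactamase domain protein, was 1.03 (adjusted p = 0.0146) and shrank to 0.55 without saline replicate 2. Ptov1 and Zc3h8 fell by 0.86, Frmd5 by 0.89 and Lrtm1 by 0.93, with adjusted p between 0.0187 and 0.0455. Brighter probe sets of Ptov1, Frmd5, Lrtm1 and Rabl6 differed by -0.27, -0.05, -0.42 and -0.31 and were not called (adjusted p between 0.343 and 0.924). Zc3h8, Frmd5 and Lrtm1 were called in 2, and Ptov1, Plxna1 and Mblac2 in 3, of the 6 fits that left out an array. Each of these 6, Rabl6 and Slc26a6 lost the call without KCN replicate 2. With the mean of airway transcripts as a covariate, Ptov1, Zc3h8, Lrtm1 and Slc26a6 lost it as well.

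**Figure D2:**
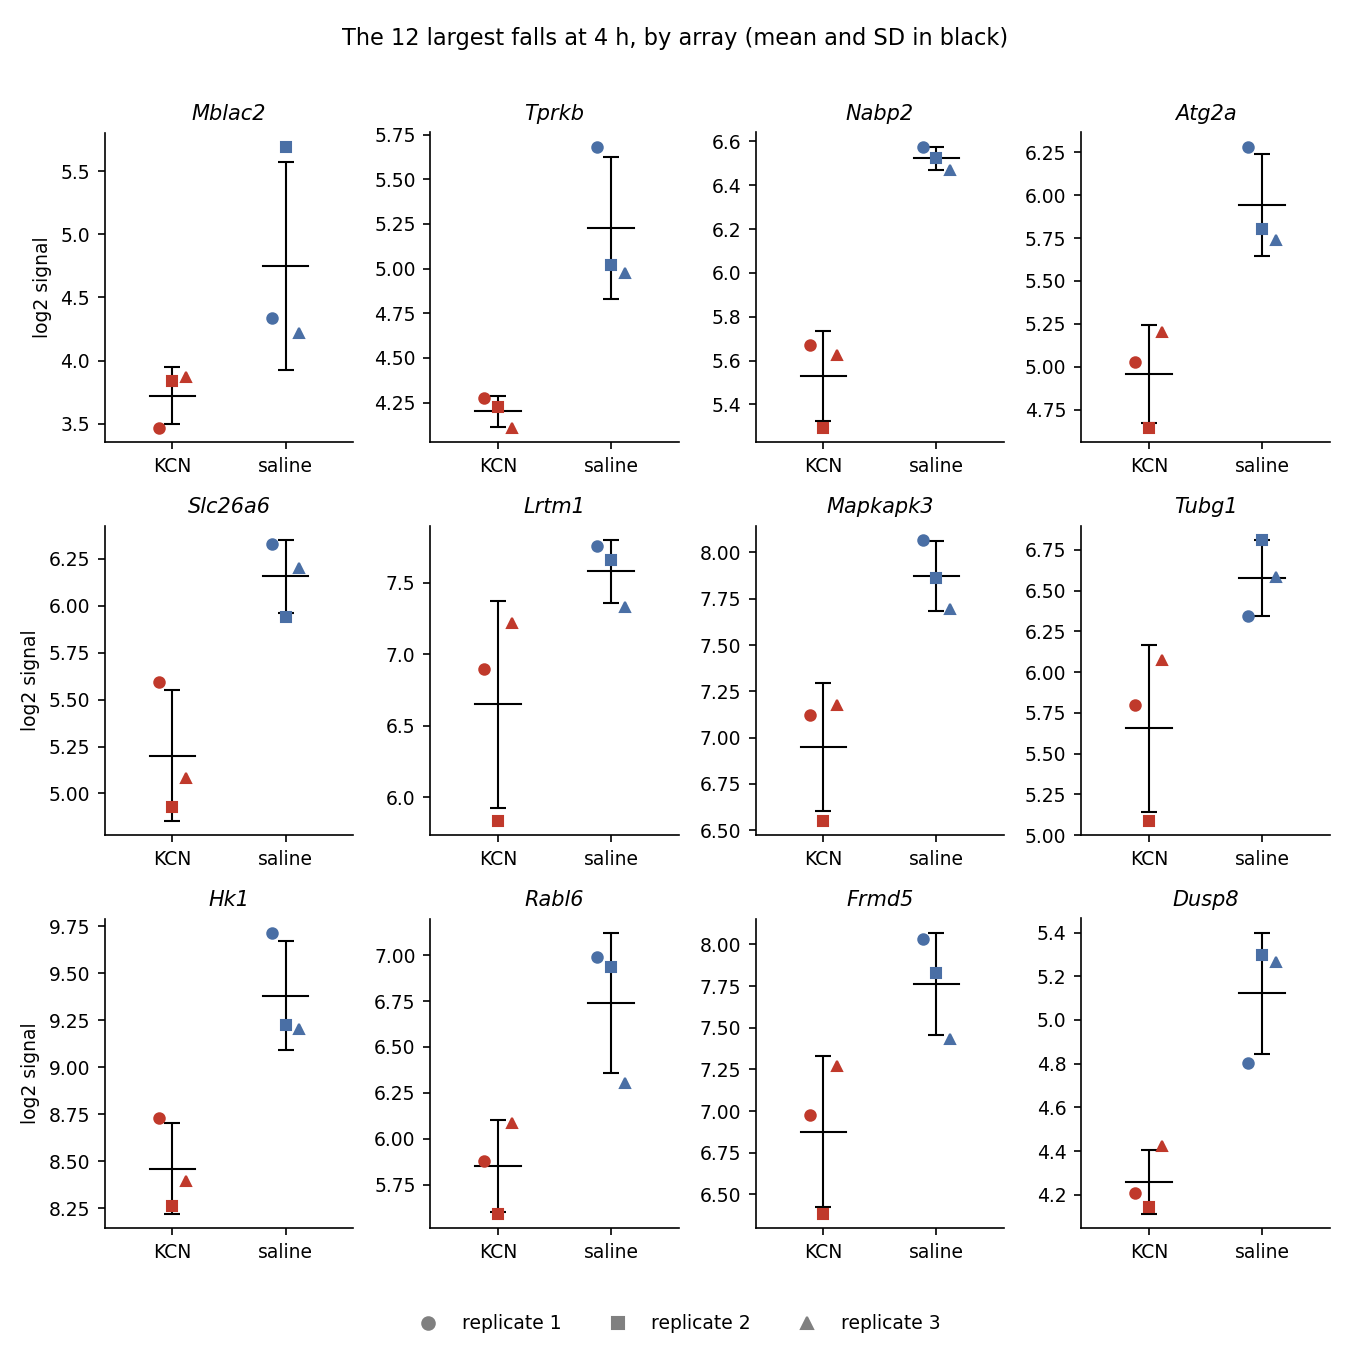
Log2 signal of named falls on each array, with KCN hearts (left) and saline hearts (right) of each panel, each point 1 array marked by its replicate and each bar a group mean. The vertical axes differ between panels. Mapkapk3 lay between 6.55 and 7.18 in KCN hearts and between 7.69 and 8.07 in saline hearts.

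Transcripts of cyanide's own target differed little. Of 24 tested subunits and assembly factors of cytochrome c oxidase, 0 rose and 0 fell in limma's test, with a median of -0.01. At an unadjusted p under 0.05 there were 2 higher and 1 lower, where 16.4% of all probe sets tested reached that level. Cox4i1, a regulatory subunit, read 12.92, 13.04 and 13.06 in KCN hearts, against 12.98, 12.96 and 13.00 in saline hearts. That difference was 0.02 ± 0.04 (adjusted p = 0.84). The lowest adjusted p of the list was 0.165, for Cox8b, the muscle isoform of a small subunit, at -0.16.

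Among 57 genes of complexes I, II and III and ATP synthase, 0 rose and 1 fell, with a median of -0.04. The called gene was Atp5g2, for the membrane ring of ATP synthase, which read 11.02, 10.91 and 11.12 in KCN hearts, against 11.32, 11.21 and 11.39 in saline hearts (-0.29 ± 0.08, adjusted p = 0.0437). The groups did not overlap there, but the gene was called in 1 of 6 fits with an array left out (-0.34 to -0.24). Dimmer probe sets of Ndufa11 (-0.66) and Ndufb7 (-0.27), both in complex I, were called as well and are not counted in the list. Of 17 citric acid cycle and pyruvate dehydrogenase genes and 23 fatty acid oxidation genes, 0 were called by limma, with medians of -0.02 and -0.03 and with 2 and 4 at an unadjusted p under 0.05. That level was reached by 16.4% of all probe sets tested. Citrate synthase (Cs) differed by -0.15 (adjusted p = 0.156), and Cpt1a, which admits fatty acids to mitochondria, by 0.50 (adjusted p = 0.212).

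Glycolysis and hypoxia genes gave single calls in opposite directions, where 1.05% of all genes rose and 1.25% fell. Of 27 glycolysis and glucose handling genes, 0 rose and 1, Hk1, fell, with a median of -0.07 that turned positive (0.02) without saline replicate 1. Hk2, the hexokinase of muscle that hypoxia can induce, lay between 10.05 and 10.21 in KCN hearts and reached 10.28 in saline hearts (0.01 ± 0.13, adjusted p = 0.982). Weaker probe sets of Pdk1, the kinase that shuts pyruvate out of the citric acid cycle, and Pgk1 rose by 0.63 and 0.34, and 1 of Aldoa fell by 0.32. Of 21 HIF subunits and hypoxia targets, 1 rose and 0 fell, with a median of 0.17. Ankrd37, a target of HIF-1, was called at 1.30 ± 0.31 (limma, adjusted p = 0.0142) although its groups overlapped, at 5.06, 6.60 and 5.73 in KCN hearts, against 4.30, 4.09 and 5.11 in saline hearts. It was called in 3 of the 6 fits that left out an array. Hif1a, the oxygen-regulated subunit, read 9.10, 9.42 and 9.27 in KCN hearts, against 8.94, 8.84 and 8.85 in saline hearts. Those groups did not overlap, but the difference of 0.38 ± 0.13 missed the threshold (adjusted p = 0.0924). A dimmer probe set of Arnt, another HIF subunit, rose by 0.52 (limma, adjusted p = 0.0434) and is not counted in the list. The brightest Arnt probe set differed by -0.17 (adjusted p = 0.517).

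Tst and Mpst, the enzymes that turn cyanide into thiocyanate, were near 0. Of 9 tested genes of cyanide and sulfide detoxification, 0 were called by limma and 1, Cdo1, had an unadjusted p under 0.05. Among all genes 1.05% rose and 1.25% fell, and 16.4% of all probe sets tested had an unadjusted p under 0.05. Tst, rhodanese, read 6.42, 6.65 and 6.30 in KCN hearts, against 6.81, 6.46 and 6.29 in saline hearts (-0.07 ± 0.29, adjusted p = 0.94). Mpst, which also passes sulfur to cyanide, differed by -0.05 ± 0.15 (adjusted p = 0.905). Cdo1, cysteine dioxygenase, read 7.35, 7.89 and 7.24 in KCN hearts, against 4.91, 6.42 and 5.07 in saline hearts. The groups did not overlap, but the gene varied between arrays of other groups as well and missed the threshold (2.03 ± 0.85, adjusted p = 0.208).

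Stress kinases and inflammatory signals were called in few members, where 1.05% of all genes rose and 1.25% fell. Of 19 p38 and JNK cascade genes, 1 rose and 1, Mapkapk3, fell, with a median of -0.08. The rise was of Map3k6, a kinase of the ASK family at the head of the cascade, at 4.14, 5.42 and 3.50 in KCN hearts, against 3.05, 3.03 and 3.31 in saline hearts (1.22 ± 0.31, adjusted p = 0.0226). KCN replicate 2 was the highest array, and without it the difference was 0.69 and not called. Of 30 NF-kB factors, cytokines and adhesion molecules, 1 rose and 0 fell, with a median of -0.01 whose sign changed in 8 of 19 alternatives. The rise was of Osmr, the oncostatin M receptor of the IL-6 family, at 0.72 ± 0.20 (adjusted p = 0.0359), called in 2 of the 6 fits that left out an array (0.41 to 0.99). Lcn2, an iron-binding acute-phase protein, read 4.66, 6.03 and 4.05 in KCN hearts, against 3.77, 3.75 and 3.44 in saline hearts (1.26, adjusted p = 0.055).

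Genes that respond to glucocorticoids had a median of 0.33, but of 24 tested, 0 were called in limma's test. At an unadjusted p under 0.05 there were 8, all higher after KCN. Over all probe sets tested, 16.4% reached that level, both directions counted. The summed log2 signals of the list were 170.2, 186.1 and 165.5 in KCN hearts, against 169.2, 161.0 and 163.1 in saline hearts. KCN replicate 2 stood highest, and the median was 0.12 without it, against 0.51 without KCN replicate 3. Fkbp5, a co-chaperone of the receptor, read 7.88, 8.86 and 7.24 in KCN hearts, against 7.68, 6.45 and 6.58 in saline hearts (1.09, adjusted p = 0.0589). Saline replicate 1 overlapped the KCN arrays for Fkbp5 and for Fam107a, an actin-associated stress gene, which differed by 1.205 (adjusted p = 0.0809). The metal-binding protein Mt1 differed by 0.46 (adjusted p = 0.0656). A second probe set of Tsc22d3, which encodes the glucocorticoid-induced leucine zipper, rose by 0.69.

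Chaperone, antioxidant and translation stress lists stayed near the median of all genes, of which 1.05% rose and 1.25% fell. Of 19 integrated stress response genes, 0 rose and 1 fell, with a median of 0.13 that was below 0 with the airway covariate. The fall was of Aars, the alanyl-tRNA synthetase, at 7.17, 7.02 and 6.95 in KCN hearts, against 7.48, 7.56 and 7.38 in saline hearts (-0.43 ± 0.11, adjusted p = 0.0268). Aars was called in 2 of the 6 fits that left out an array, and its dimmer probe set differed by -0.15 (limma, adjusted p = 0.725). Ppp1r15a, which ends that response by restoring translation, differed by 0.66 (adjusted p = 0.145). None of 19 endoplasmic reticulum chaperones, 15 cytosolic heat shock proteins or 23 NRF2 targets was called by limma, with medians of 0.02, 0.03 and 0.07, of which 0.02 and 0.03 changed sign between alternatives. At an unadjusted p under 0.05 there were 4, 0 and 4, where 16.4% of all probe sets tested reached that level. The chaperone Hspa5 differed by -0.34 (adjusted p = 0.167). A pair of dim probe sets of the small heat shock protein Hspb1 rose, by 1.24 and 1.14, while its brightest one was not called. Of 26 proteasome subunits 1 rose and 1 fell, namely Psma7 by 0.37 (adjusted p = 0.039) and Psmb3 by -0.56 (adjusted p = 0.00957), and a second Psmb3 probe set differed by 0.00. Psma7 was called in 1, and Psmb3 in 4, of the 6 fits that left out an array. Among 17 p53 targets and apoptosis genes, 1 rose and 0 fell. It was Mcl1, a survival protein of the Bcl-2 family, at 10.21, 10.44 and 9.99 in KCN hearts, against 9.64, 9.47 and 9.93 in saline hearts (0.53 ± 0.13, adjusted p = 0.0209). Dimmer Mcl1 probe sets differed by 0.40 and -0.11 with overlap (limma, adjusted p = 0.055 and 0.769). Mcl1 was called in 2 of the 6 fits that left out an array (0.42 to 0.66) and lost the call with the airway covariate.

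Lists of heart function held 1 call. Of 14 stretch and stress genes, 0 rose and 1 fell, with a median of 0.20. Myh7, the slow myosin heavy chain, read 12.55, 12.53 and 12.56 in KCN hearts, against 12.93, 12.86 and 12.75 in saline hearts. It fell by 0.30 ± 0.08 (limma, adjusted p = 0.0235), whereas its dimmer probe set differed by 0.42 (adjusted p = 0.725). Myh7 was called in 2 of the 6 fits that left out an array (-0.35 to -0.26) and lost the call with the airway covariate and with array weights. Of 20 ion channels and connexins, 0 were called in limma's test and the median was -0.21, with 5 lower and 0 higher at an unadjusted p under 0.05. Over all probe sets tested, 16.4% reached that level, both directions counted. Kcnj5, a subunit of the acetylcholine-gated potassium channel, read 6.63, 6.55 and 7.65 in KCN hearts, against 7.68, 7.61 and 7.75 in saline hearts (-0.74, adjusted p = 0.055). Gja1, connexin 43 of the ventricles, was read by several probe sets that went different ways. The brightest differed by -0.33 with no overlap (adjusted p = 0.144), and the next 3 by 0.23, 0.17 and 0.11 (adjusted p between 0.397 and 0.903). None of 15 calcium handling, 21 extracellular matrix, 14 clock, 13 interferon or 20 cell cycle genes was called by limma through its brightest probe set, with medians of -0.02, 0.22, 0.14, -0.09 and 0.07 and with 0, 3, 2, 0 and 0 members at an unadjusted p under 0.05. Of these, the medians for calcium handling, the clock, interferon and the cell cycle changed sign in at least 1 alternative. Dimmer probe sets of Timp3, an inhibitor of matrix proteases, rose by 1.19 and 1.01, while its brightest differed by 0.66 (adjusted p = 0.124).

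**Figure D3:**
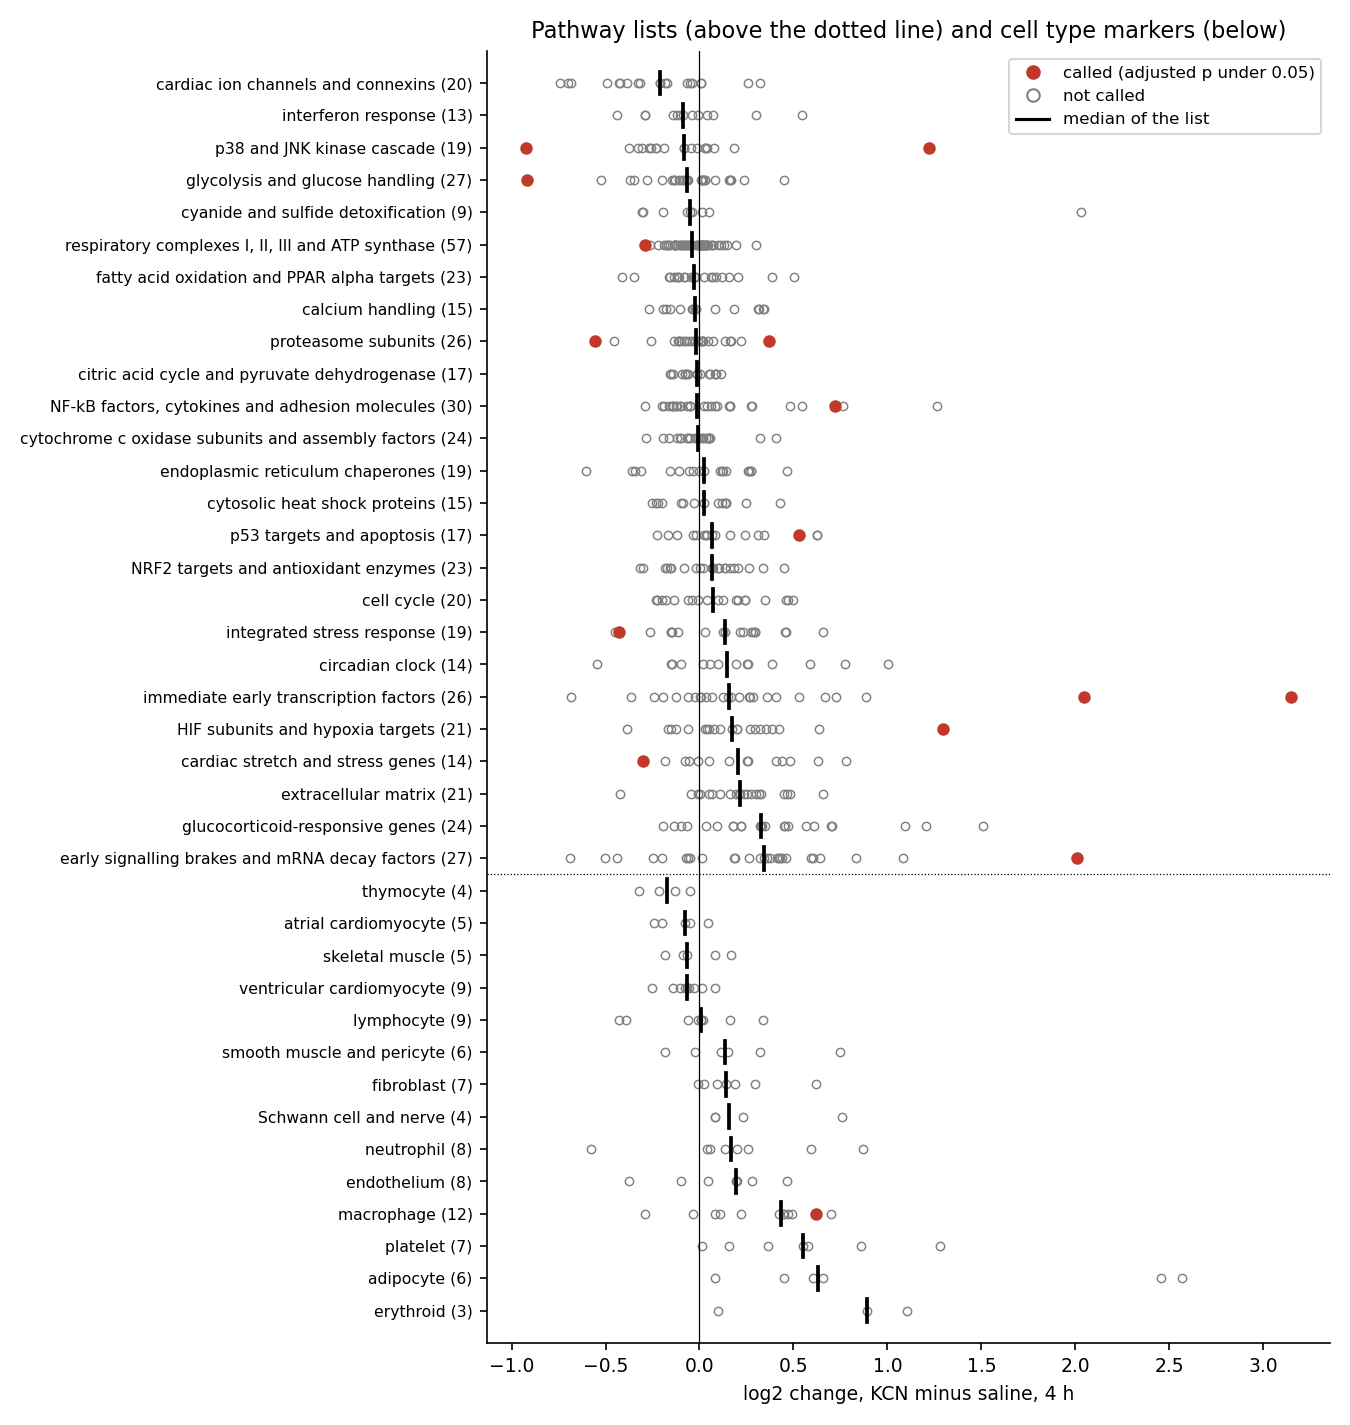
Log2 change of each tested member of the pathway lists (above the dotted line) and the marker lists (below it), KCN minus saline at 4 h, with the number of members tested in brackets, called members filled and the median as a bar. The list of airway markers is off the scale and is left out. Most members lay near 0, and Nr4a3 at 3.15 was the farthest called member.

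Markers of other cells differed with the groups by amounts that stand beside the results above. Of 9 airway and lung markers tested, 0 were called in limma's test, with standard errors above 2 for Scgb1a1, Scgb3a1 and Scgb3a2, but 5 of 9 did not overlap and the same number had an unadjusted p under 0.05. Over all genes 18.7% did not overlap, and 16.4% of all probe sets tested had an unadjusted p under 0.05. The summed log2 signals of the 9 markers were 55.2, 77.7 and 65.1 in KCN hearts, against 29.9, 28.2 and 27.7 in saline hearts. The 5 were the secretory genes Scgb1a1, Scgb3a1, Scgb3a2, Bpifa1 and Cyp2f2, while Foxj1 of ciliated cells stayed at 2.84 or less on all 6 arrays. With the mean of Scgb1a1 and Bpifa1 as a covariate, 22 of the 40 named genes that were called kept the call. Adipocyte markers had a median of 0.63 over 6 genes, with 0 called by limma and 1 at an unadjusted p under 0.05. That median was -0.0078 with the airway covariate and lay between 0.50 and 0.90 in the other alternatives. Adipoq, the hormone adiponectin, read 9.54, 10.26 and 9.72 in KCN hearts, against 6.99, 8.45 and 6.72 in saline hearts (2.46, adjusted p = 0.176), and Fabp4 lay between 12.28 and 12.54 in all 6 hearts. The part of airway or fat transcripts in any single change was not tested beyond that covariate.

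Macrophage markers had a median of 0.44 over 12 genes, with 1 rise. C1qb, a chain of the complement starter C1q, read 8.24, 8.63 and 8.18 in KCN hearts, against 7.45, 7.88 and 7.85 in saline hearts (0.62 ± 0.17, adjusted p = 0.0381). It was called in 2 of the 6 fits that left out an array (0.48 to 0.71). C1qa, C1qc, Mrc1 and Cd68 also had KCN arrays above all saline arrays without a call, by 0.43 to 0.49, whereas Adgre1, which encodes F4/80, differed by -0.03. In all, 5 of the 12 macrophage markers did not overlap, against 18.7% of all genes. Of 7 platelet markers 0 were called by limma, with a median of 0.55, and of 3 erythroid markers 0 were called, with a median of 0.89, and 2 and 0 had an unadjusted p under 0.05. Markers of ventricular muscle had a median of -0.06 over 9 genes, and those of fibroblasts, endothelium and neutrophils medians of 0.14, 0.19 and 0.17. In these 4 lists limma called 0, and 2, 2, 0 and 1 had an unadjusted p under 0.05. Over all probe sets tested, 16.4% did.

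**Figure D4:**
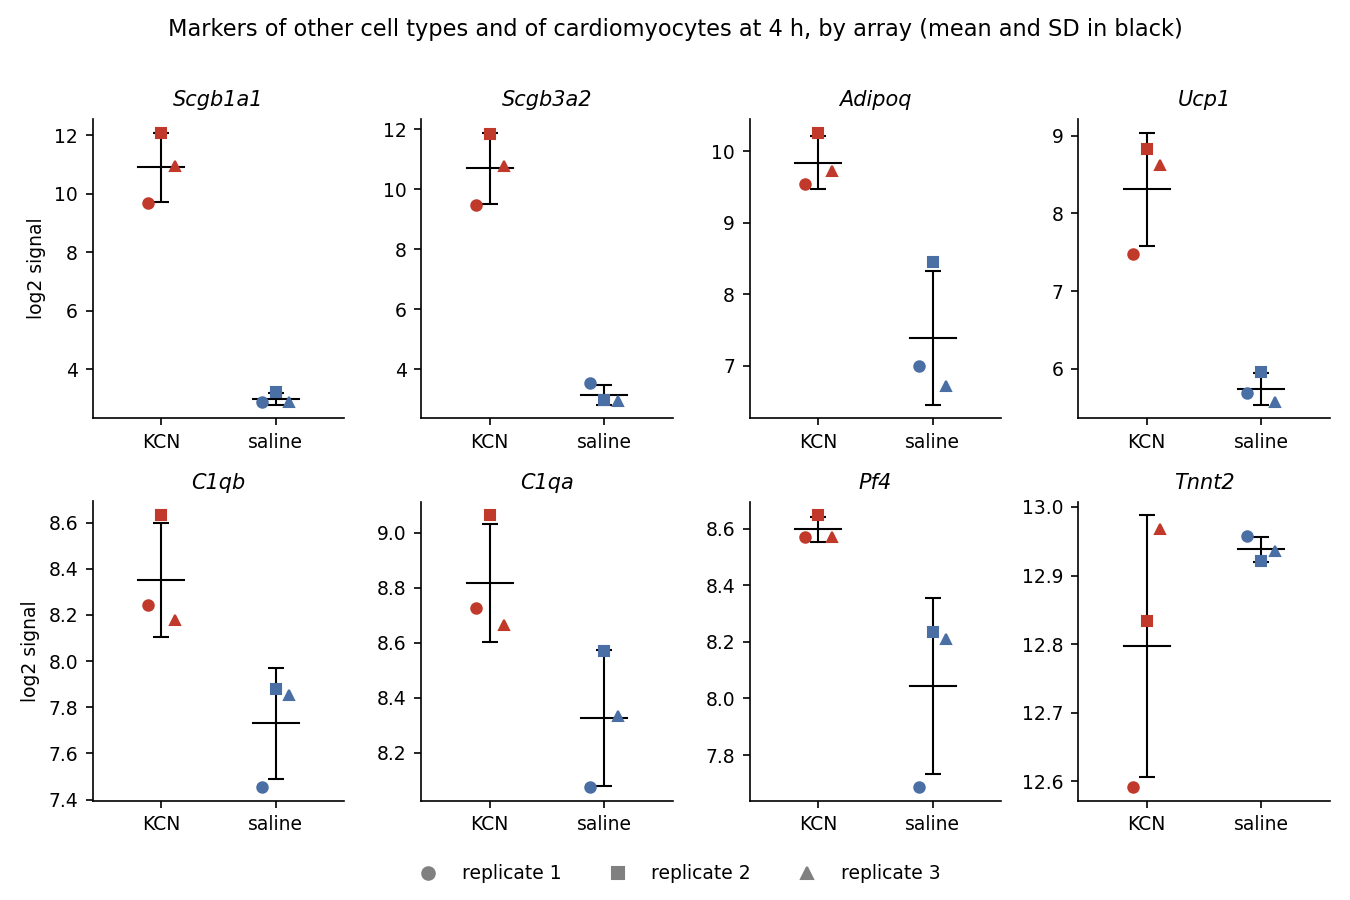
Log2 signal of cell type markers on each array, with KCN hearts (left) and saline hearts (right) of each panel, each point 1 array marked by its replicate and each bar a group mean. The vertical axes differ between panels. Scgb1a1 was above 9 on the 3 KCN arrays and below 4 on the 3 saline arrays.

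The changes at 2 h and 8 h after injection were set beside those at 4 h, with no array shared between them. At 2 h 1765 probe sets were called between KCN and saline (6.59%, 3.29% higher and 3.30% lower) and at 8 h 90 (0.336%, 0.138% higher and 0.198% lower). Of the 325 rises at 4 h, 36 had also risen at 2 h and 4 were still raised at 8 h, and of the 280 falls 18 had fallen at 2 h and 1 was lower at 8 h. Testing the difference between times, the change at 4 h differed from that at 2 h for 496 probe sets (1.85%) and from that at 8 h for 234 (0.874%). Among the probe sets called at 4 h, 66 rises and 54 falls were among those 496, and 68 rises and 77 falls among those 234. Both differences hold the 4 h arrays that made the calls. Probe sets picked as called at 4 h therefore lean toward a called difference. By direction, 301 of the 496 were higher at 4 h (1.12%) and 195 lower (0.728%), or 206 and 248 after quantile normalization, and 119 of the 234 were higher at 8 h (0.444%) and 115 lower (0.430%), or 188 and 120 after quantile normalization. The 3 saline arrays at 2 h had lower 18S control signals, 11.2 to 11.9, than any other array (12.2 to 13.4), and what this adds to the difference was not tested.

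The early genes separated over time. Nr4a3 changed by 3.25, 3.15 and 2.80 at 2 h, 4 h and 8 h, all called, with no called difference between the times. Agt changed by 1.43, 1.34 and 1.74 at the same hours, also called at all 3. Atf3 changed by 2.87, 2.04 and -0.38, and the change at 8 h differed from that at 4 h by -2.42 (limma, adjusted p = 0.038). Btg2 changed by 2.59, 2.01 and -0.13, but its difference between 8 h and 4 h of -2.14 was not called. Slc2a3 changed by -0.91, 1.34 and 0.00, with a difference between 4 h and 2 h of 2.25 (adjusted p = 0.00969). Ankrd37 changed by -0.29, 1.30 and 0.34 and also differed between 4 h and 2 h, by 1.59 (adjusted p = 0.0319).

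None of the 15 largest falls at 4 h was called at 2 h or at 8 h. Among all probe sets tested, 6.59% were called at 2 h and 0.336% at 8 h, shares at which few of 15 would be called. Hk1 changed by 0.08, -0.92 and 0.07 at 2 h, 4 h and 8 h, and both differences were called, -0.996 for 4 h minus 2 h (adjusted p = 0.0111) and 0.99 for 8 h minus 4 h (adjusted p = 0.00868). Mapkapk3 changed by -0.14, -0.93 and 0.01 and Nabp2 by 0.09, -0.99 and 0.14, and both differed at 4 h from either time. Rabl6 did too, with 0.08, -0.89 and 0.26. These genes were picked for their falls at 4 h, and the differences hold the same 4 h arrays. Of the other named falls, Tprkb, Atg2a, Tubg1, Ptov1 and Plxna1 differed between 8 h and 4 h only, by 1.05 to 1.26. The platelet genes Pf4 and Ppbp fell at 2 h, by 0.74 and 2.22, and were at 0.55 and 1.28, uncalled, at 4 h. The 496 differences between 4 h and 2 h became 186 and 302 when KCN replicates 1 and 2 at 4 h were left out, 189 for KCN replicate 4 at 2 h, 203 for saline replicate 2 at 4 h and 283 for saline replicate 3 at 2 h. The 234 between 8 h and 4 h became 87 when KCN replicate 2 at 4 h was left out, 110, 112 and 486 for saline replicates 1, 2 and 3 at 4 h, 124 and 496 for KCN replicates 1 and 4 at 8 h and 153 for saline replicate 3 at 8 h.

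Inhaled HCN gave the other 4 h comparison. There 1967 probe sets were called between HCN and air (7.35%, 2.87% higher and 4.48% lower), and 64 of the 325 rises after KCN had also risen and 26 of the 280 falls had also fallen. The change after KCN differed from the change after HCN for 501 probe sets (1.87%), 328 higher (1.23%) and 173 lower (0.646%) after KCN, or 170 and 252 after quantile normalization. Among the probe sets called after KCN, 55 rises and 52 falls were in that set. This contrast holds the KCN and saline arrays that made the calls, so called probe sets lean toward it as well. Route, dose and compound changed together between the arms and cannot be told apart, and the arms have different controls and appear to have been scaled apart, so no level was set across them. The 501 became 109 and 271 without KCN replicates 1 and 3, 303, 147 and 765 without saline replicates 1, 2 and 3, 259 without air replicate 2, 328 without HCN replicate 4 and 143 with the airway mean as a covariate. Airway genes also ran differently, since the airway mean was above 8 in 2 of 4 HCN arrays and in all 4 air arrays at 4 h.

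Shared rises were headed by the early genes. Nr4a3 rose by 3.15 after KCN and by 4.28 after HCN, Atf3 by 2.04 and by 3.88, and Agt by 1.34 and by 2.64, with no called difference between the routes for any of them. Vcan rose by 1.34 after KCN and by 1.17 after HCN. Map3k6 rose by 1.22 after KCN and by 2.71 after HCN, and this difference was called (-1.49, adjusted p = 0.0411). Fcna changed by 1.55 after KCN and by -0.07 after HCN (difference 1.61, adjusted p = 0.0426). Osr1 changed by 1.33 after KCN and by -0.57 after HCN (difference 1.90, adjusted p = 0.0033). Among the falls, Hk1 changed by -0.92 after KCN and by -0.10 after HCN (difference -0.82, adjusted p = 0.0308), and Atg2a by -0.98 and by -0.04 (difference -0.95, adjusted p = 0.0329). Dusp8, Zc3h8 and Frmd5 fell after both, by 0.86, 0.86 and 0.89 after KCN and by 0.91, 1.09 and 0.91 after HCN. Tubg1, Nabp2 and Mapkapk3 changed by -0.15, -0.26 and -0.36 after HCN without a call, and their differences between the routes were not called.

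**Figure D5:**
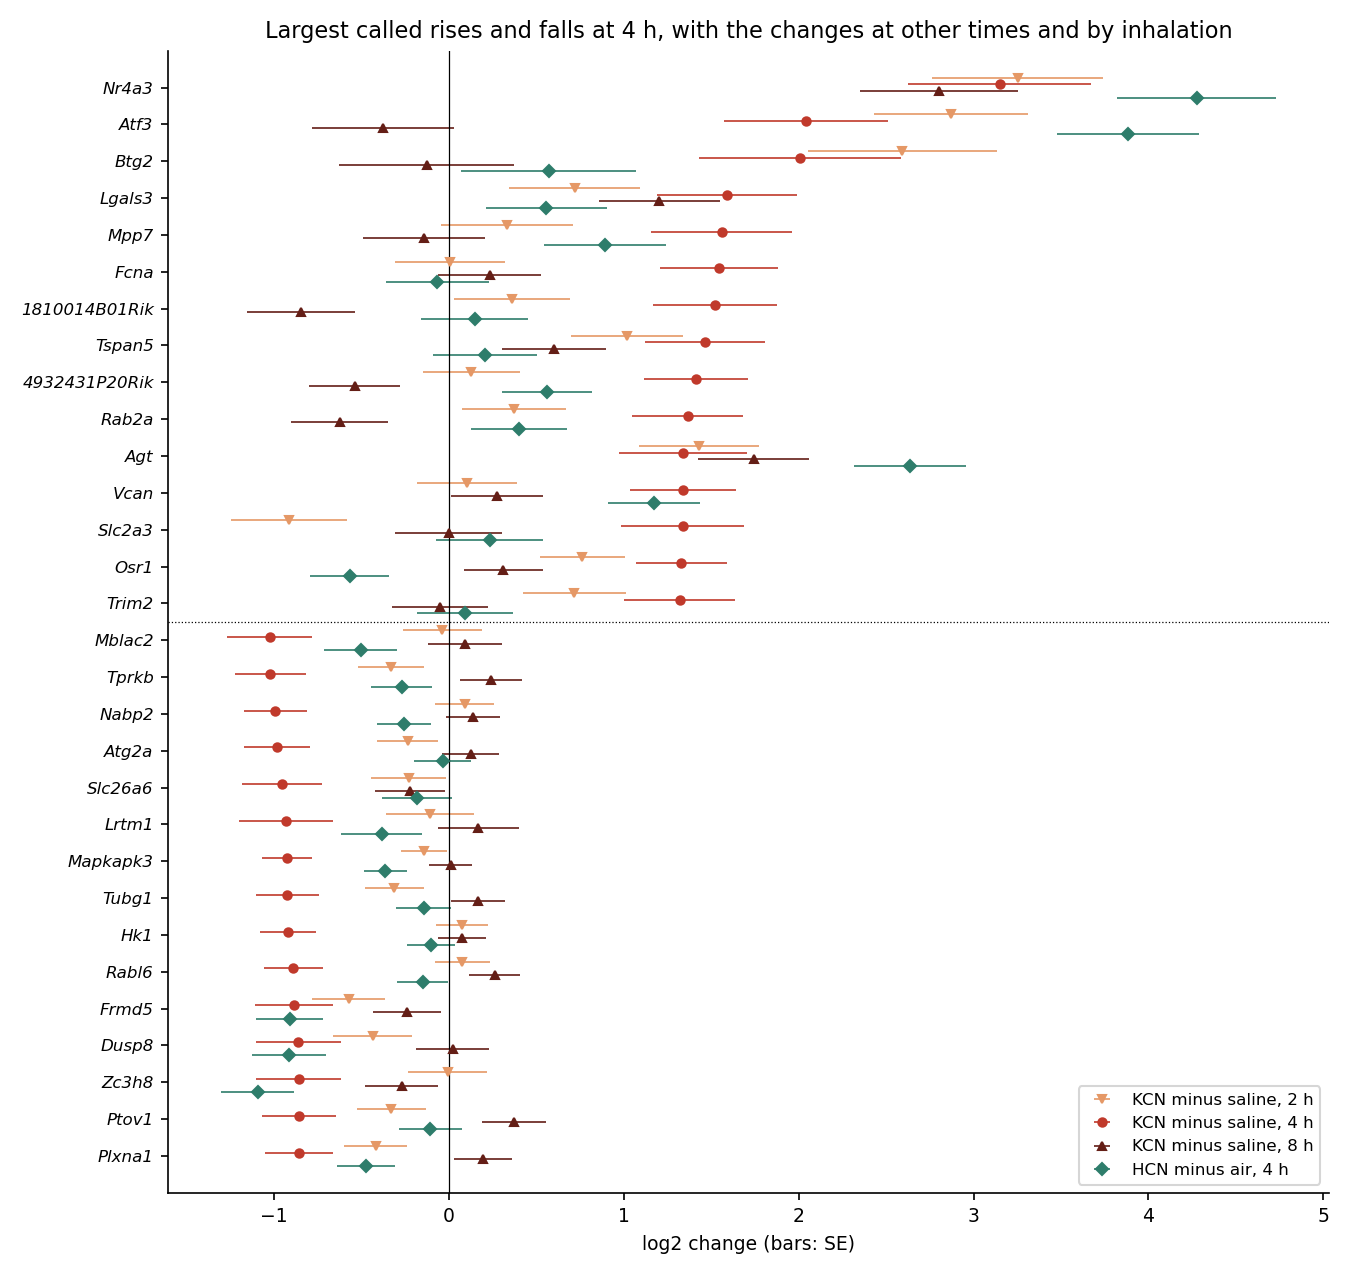
Log2 change of the 15 largest rises and 15 largest falls at 4 h after KCN, with the changes of the same probe sets at 2 h and 8 h after KCN and at 4 h after inhaled HCN, each against its own control, bars showing the SE. Nr4a3 and Agt stood above 0 at all times and after HCN, whereas the falls of Hk1, Mapkapk3 and Nabp2 at 4 h had changes between -0.36 and 0.14 in the other comparisons.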

How the data were processed

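The deposited log2 signals of 69 Affymetrix HT MG-430 PM arrays were used as the authors left them. The submitters' processing notes name MAS5 without a version or its role, and which further scaling gave the deposited log2 values is not given in the sources used here. Per the labels' protocols, RNA was isolated with RNeasy Plus kits and biotin-labelled from 100 ng with the 3' IVT Plus kit. The 37 injection and 32 inhalation arrays appeared to have been scaled as separate sets. Array number limits the precision.

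Of 45141 probe sets, 104 were controls, 28898 carried 1 gene symbol, 551 several and 15588 none in the platform annotation. The 26773 tested held 19929 with 1 symbol, in 12436 genes. A mean was fitted for each of 18 groups over all 69 arrays with limma 3.58.1 in R 4.3.3 (lmFit, then eBayes with an intensity trend, two-sided, 51 residual and 5.53 prior degrees of freedom), since 3 arrays a group estimate a spread poorly. Differences between times and routes were contrasts of the same fit, and p-values were adjusted over all probe sets tested. Control probe ratios were compared by exact permutation.

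Members, lists and named genes were chosen with earlier results of these data known. Named genes are the 15 largest non-overlapping called rises and falls with 1 symbol, the called members of each list with further ones by lowest p up to 3, and a fixed set around cyanide and the Nr4a family. Further genes named in the text, and the other probe sets of list genes, were picked after their values were seen. A list gene is read by its tested probe set of highest mean. Replicate numbers did not pair the arrays, since deviations of same-numbered KCN and saline arrays correlated at 0.06, 0.03 and -0.02. The alternatives tried concern filters, scaling, the trend, the arrays fitted, covariates, probe sets, weights and left-out arrays. Promoter sequences come from RefSeq on GRCm38.p6.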

Additional observations from a re-analysis of the deposited data

Results flagged for a closer look

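The results below stood out because the KCN change of a gene named in the text differed by limma's test (adjusted p under 0.05) between 4 h and a neighbouring time, or between the injected and the inhaled route. They are given as values, with no weighing of their cause. Each of these differences holds the KCN and saline arrays at 4 h. Genes named because they were called at 4 h therefore lean toward a called difference.

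Between 4 h and 2 h, the change at 4 h was higher for Slc2a3 (2.25), Ankrd37 (1.59), the fibroblast proteoglycan Lum (0.64) and the platelet genes Pf4 (1.29), Ppbp (3.49) and Gp1bb (2.56). It was lower for Nabp2 (-1.08), Mapkapk3 (-0.78), Hk1 (-0.996), Rabl6 (-0.97) and Psmb3 (-0.73). The platelet differences rest on falls at 2 h, of 0.74 for Pf4, 2.22 for Ppbp and 1.71 for Gp1bb, beside uncalled changes of 0.55, 1.28 and 0.86 at 4 h.

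Between 8 h and 4 h, the change at 8 h was lower for 4 genes that rose at 4 h, namely Atf3 (-2.42), 1810014B01Rik (-2.37), 4932431P20Rik (-1.95) and Rab2a (-1.99). It was higher for 11 genes that fell at 4 h. These were Tprkb (1.26), Nabp2 (1.13), Atg2a (1.11), Mapkapk3 (0.94), Tubg1 (1.09), Hk1 (0.99), Rabl6 (1.15), Ptov1 (1.23), Plxna1 (1.05), Aars (0.74) and Myh7 (0.43).

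Between KCN and HCN at 4 h, the change after KCN was higher for Fcna (1.61), Osr1 (1.90) and the potassium channel gene Kcnj8 (0.98). It was lower for Atg2a (-0.95), Hk1 (-0.82), Map3k6 (-1.49), Fam107a (-1.94), Aars (-0.68), Hspa5 (-0.66) and Psmb3 (-0.85). Fam107a, Hspa5 and Kcnj8 were not called in KCN against saline at 4 h, where their changes were 1.205, -0.34 and 0.32, and HCN changed them by 3.15, 0.31 and -0.66. Airway transcripts, which were high on all 3 KCN arrays, on no saline array, on 2 of 4 HCN arrays and on all 4 air arrays, moved with this contrast, and their part in these 10 differences was not tested gene by gene.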

How the results depend on the processing

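For KCN against saline at 4 h, the 605 calls became 29 when only the 6 arrays were fitted, 229 with the airway covariate, 303 with 1 probe set per gene, 343 at 1.5-fold or more, 294 with array weights and 56 to 947 with 1 array left out. Other settings gave 410 to 782 calls, 474 of them with no filter and 773 after quantile normalization. Of 40 called named genes, 22 kept the call with the airway covariate, 22 with array weights, 3 in the fit of 6 arrays, and 6, 12 and 17 without KCN replicate 2, saline replicate 1 and saline replicate 2. None changed sign in these settings. The median change of a gene's other probe sets was looked at in 21 genes, and that median was not itself tested. In 2 of 21 it had the same sign and at least 1 of the other probe sets was called. It had the opposite sign in 3, 1810014B01Rik (-0.16), Myh7 (0.42) and Psmb3 (0.00457). The replicate block, although the numbers did not pair the arrays, gave 555 calls at 4 h, 189 for 4 h minus 2 h, 261 for 8 h minus 4 h and 554 for KCN minus HCN. For 4 h minus 2 h, 496 became 49 with only those groups fitted, 824 with the actin covariate, 263 with 1 probe set per gene, 306 with array weights and 186 to 618 with 1 array left out. For 8 h minus 4 h, 234 became 153 with no filter, 360 with the filter at the 75th percentile, 128 with the injection arm alone, 4 with only those groups, 517 with the actin covariate, 123 with 1 probe set per gene, 119 with array weights and 87 to 496 with 1 array left out. For KCN minus HCN, 501 became 12 with only those groups, 143 with the airway covariate, 307 with 1 probe set per gene and 109 to 765 with 1 array left out. The actin ratio difference of -0.270 ran between -0.400 and -0.0987 with 1 array left out, and the Gapdh one was -0.180. Fewer probe sets or arrays enter by construction where 1 probe set per gene, only those groups or a left-out array was used, and the cause of the other shifts was not tested.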

Other observations

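The called genes held further members of groups that the lists cover in part or not at all. Read by brightest probe sets, limma called 1 of 12 macrophage markers, 0 of 7 fibroblast markers and 0 of 21 extracellular matrix genes. It called 0 of 24 cytochrome c oxidase genes and 1 of 57 genes of the other respiratory complexes. The genes in these paragraphs were gathered after their values were seen, so their counts are descriptions with no test. All were picked from called genes, and how many such genes were tested was not counted. Of the genes that rose, 12 are known from monocytes and macrophages, with changes between 0.57 and 1.59. Besides Lgals3, Fcna and C1qb they were the chemokines Ccl6 (0.84) and Ccl9 (1.25), the receptor chain Fcer1g (0.57), the receptor Cd300lb (0.63), the complement factor properdin Cfp (0.99), Fgl2 (0.90) and the membrane proteins Ms4a6b (0.94), Ms4a6c (1.08) and Ms4a6d (1.17). Ms4a6c read 6.52, 7.29 and 6.70 in KCN hearts, against 5.76, 5.31 and 6.18 in saline hearts. Fgl2, Ms4a6b and Ms4a6d were each called on 1 of 2 probe sets, and the groups overlapped for Cd300lb. KCN replicate 2 was the highest KCN array in 11 of the 12, and 0 of them were called at 2 h, 0 at 8 h and 5 after HCN at 4 h. The shares of all probe sets called in those comparisons were 6.59%, 0.336% and 7.35%. Broad macrophage markers did not move alike, since Adgre1 differed by -0.03 and Csf1r by 0.11. Genes of stromal cells and matrix that rose included Medag (1.28), Cyp1b1 (1.03), Bmper (1.01), Srpx (0.96) and Mfap5 (0.74) beside Vcan, Osr1 and Timp3. Medag read 6.37, 6.75 and 6.38 in KCN hearts, against 5.02, 5.39 and 5.25 in saline hearts. Medag, Cyp1b1 and Mfap5 were each called on 1 of 2 probe sets, and the groups overlapped for Mfap5. KCN replicate 2 was the highest KCN array in 6 of these 8 genes, and 3 were called at 2 h, 0 at 8 h and 4 after HCN at 4 h.

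Of the genes that fell, 11 encode factors that assemble, translate or guard mitochondrial proteins. They were the complex III assembly factors Uqcc1 (-0.58) and Uqcc2 (-0.48), Smim20 (-0.43), which acts in cytochrome c oxidase assembly, the ribosomal proteins Mrps5 (-0.63) and Mrpl52 (-0.38), the import pore subunit Tomm5 (-0.41), the proteases and chaperones Clpp (-0.35) and Clpb (-0.46), prohibitin Phb (-0.60), Opa3 (-0.55) and the mitochondrial stress relay Dele1 (-0.70). Dele1 read 7.28, 7.08 and 7.26 in KCN hearts, against 8.07, 7.94 and 7.72 in saline hearts. Both probe sets of Uqcc2 were called, and for the others 1 was. The called Mrps5 probe set averaged 4.0 in KCN hearts and 4.63 in saline hearts, while brighter ones averaged 6.25 and 6.82 in KCN hearts, against 6.26 and 6.69 in saline hearts. KCN replicate 2 was lowest in 9, and 0 were called at 2 h, at 8 h or after HCN, where 6.59%, 0.336% and 7.35% of all probe sets tested were called. Another 5 falls were of kinase subunits, the catalytic and regulatory subunits of protein kinase A Prkaca (-0.62) and Prkar2a (-0.60), the AMP-activated kinase subunit Prkab1 (-0.59), the phosphorylase kinase subunit Phka2 (-0.68) and Camk2g (-0.52). Prkaca and Camk2g were each called on 1 of 2 probe sets and Prkar2a on 1 of 3, and the groups overlapped for Phka2.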
